A study of Mus musculus with 4 samples.

Results

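The genes of retinal cyclic GMP synthesis were examined in whole retinas of *rd7* and wild-type mice. They are 5 of the 22095 loci in the expression table and were chosen by symbol: the membrane guanylate cyclases *Gucy2e* and *Gucy2f*, the guanylate cyclase activating proteins *Guca1a* and *Guca1b*, and the cyclase-binding protein *Rd3*. Each symbol matched 1 locus. The *rd7* mouse is mutant for *Nr2e3*, which encodes a nuclear receptor of the rod lineage, and its rods are described in the study as hybrid cells with properties of cones. RNA-seq was analysed from 2 *rd7* and 2 wild-type libraries, all from mice of 3 weeks of age and all labelled with the strain C57BL/6J. The study itself names C57BL/6J and *rd7* as the strains. Any difference of background could therefore not be told apart from the mutation. Each library pooled 8 retinas of 2 female and 2 male mice. Polyadenylated RNA of the whole retina was sequenced in single reads of 50 bp, so a library holds photoreceptors together with the inner neurons and the Müller glia. A pool has no spread between its own animals, and 2 pools per genotype give 1 difference each as the measure of error.

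Cyclic GMP is the second messenger of the light response in rods and cones. In darkness it holds cation channels of the outer segment open, and light lowers it through the phosphodiesterase PDE6. The channels then close, intracellular calcium drops, and the calcium-binding activating proteins (GCAPs) stimulate the membrane cyclases, which refill the cyclic GMP pool and let the cell recover. *Gucy2e* encodes retGC1, the cyclase of both rods and cones and the mouse counterpart of human *GUCY2D*, whereas *Gucy2f* encodes retGC2, the accessory cyclase of rods. *Guca1a* encodes GCAP1 and *Guca1b* encodes GCAP2. RD3 binds both cyclases, restrains their basal activity and is needed for their transport to the outer segment.

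All 5 genes are multi-exon genes in the mm9 build used by the authors. *Gucy2e* (ENSMUSG00000020890) lies at chr11:69031619-69050524 on the minus strand, and the longest of its 4 annotated transcripts has 19 exons. *Gucy2f* (ENSMUSG00000042282) lies at chrX:138515703-138631474 on the minus strand, with 1 annotated transcript of 20 exons. *Guca1a* (ENSMUSG00000023982; chr17:47531507-47537533, minus strand) and *Guca1b* (ENSMUSG00000023979; chr17:47522342-47529916, plus strand) are neighbours whose 3′ ends face each other 1591 bases apart, and each has 4 exons in its longest transcript. *Rd3* (ENSMUSG00000049353) lies at chr1:193801254-193812163 on the plus strand and has 3 exons. No other locus of the table overlapped any of the 5, and none of their 50-base stretches of exonic sequence occurred in a protein-coding transcript of another gene.

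The sequence upstream of the start sites is shown for the members that hold the TAATCC core bound by the photoreceptor homeobox factors CRX and OTX2. RefSeq promoter sequences of the GRCm38.p6 build, of 300 bases each, matched 4 of the 5 members, and *Guca1b* was not matched. The 250 bases before the start site are printed 5′ to 3′ on the strand of the gene, with TAATCC or its reverse complement GGATTA in capitals.
Gucy2e, chr11:69237023-69237272, minus strand: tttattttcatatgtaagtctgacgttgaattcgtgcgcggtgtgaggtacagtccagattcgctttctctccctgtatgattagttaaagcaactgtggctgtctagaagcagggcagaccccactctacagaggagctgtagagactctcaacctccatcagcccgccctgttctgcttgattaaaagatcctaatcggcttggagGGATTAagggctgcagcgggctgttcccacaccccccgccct
Gucy2f, chrX:142196937-142197186, minus strand: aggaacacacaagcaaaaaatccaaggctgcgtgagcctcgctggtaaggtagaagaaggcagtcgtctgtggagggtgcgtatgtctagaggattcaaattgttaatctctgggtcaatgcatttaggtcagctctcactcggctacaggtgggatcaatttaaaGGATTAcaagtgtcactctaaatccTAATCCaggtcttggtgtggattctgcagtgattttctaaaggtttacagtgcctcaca
Guca1a, chr17:47400607-47400856, minus strand: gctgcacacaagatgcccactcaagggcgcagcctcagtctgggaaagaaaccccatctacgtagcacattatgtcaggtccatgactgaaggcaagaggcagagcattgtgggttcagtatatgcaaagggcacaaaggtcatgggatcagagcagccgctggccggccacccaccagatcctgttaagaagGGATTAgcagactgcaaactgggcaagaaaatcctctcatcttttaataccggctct

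The core stood 42 bases before the start of *Gucy2e* and 57 bases before that of *Guca1a*, and *Gucy2f* held it at 84 and at 59 bases before the start. It was found in neither of the 2 promoters listed for *Rd3*. Searched on both strands, TAATCC occurred in 7.06% of the 32851 mouse promoters of the same length. The letters TGCTGA, part of the site of the rod factor NRL, occurred in 19.5% of these promoters, and AAGTCA, part of the site of NR2E3, in 15.1%, and neither was in any window of the 4 matched members. These matches describe letters only. *Gucy2e*, *Gucy2f* and *Guca1a* thus shared the CRX/OTX core, while their expression moved in different directions in *rd7* retinas.

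The values are FPKM, fragments per kilobase of transcript scaled to the mapped reads of the library. This allows for length and depth, but comparisons between genes and between libraries still depended on the processing, as given below. Of the loci, 12655 had a mean FPKM of at least 1 and a successful estimate in all 4 libraries and were tested with limma on log2(FPKM + 0.1), and all 5 members were among them. Depth was put at 3.49e+07 to 3.55e+07 reads per library from low FPKM values within a fixed window. At that depth the member values rest on an estimated 2633 to 68154 reads. The window largely sets these figures, so they are rough and do not show that the libraries were equally deep. At an FDR of 5%, 46.4% of all genes tested were called, 37.6% as higher and 8.80% as lower in *rd7*, and 76.6% had values that did not overlap between the genotypes. Over all genes the log2 fold change had a median of 0.15, so each member is also given relative to it. With median-ratio scaling the calls over all genes split into 2492 higher and 2479 lower, against 4755 and 1114 on the FPKM as deposited. Against this background, 5 of 5 members were called, 3 as higher and 2 as lower, and all 5 had values that did not overlap.

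The activators moved in opposite directions: *Guca1b* fell and *Guca1a* rose. Both had larger log2 fold changes than either cyclase, although the 95% intervals of *Guca1a* and *Gucy2f* overlapped. In wild-type retinas the activators stood at similar levels, and in *rd7* retinas *Guca1a* was several times higher than its neighbour. Of the cyclases, *Gucy2e* was lower and *Gucy2f* higher in *rd7*. On the FPKM as deposited *Rd3* differed least from wild-type, and its log2 fold change of 0.17 was the median of the 5. In bulk tissue, fewer cells of a type and less RNA per cell cannot be told apart for any of these genes. The plot of FPKM by library shows each member on its own axis.

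**Figure D1:**
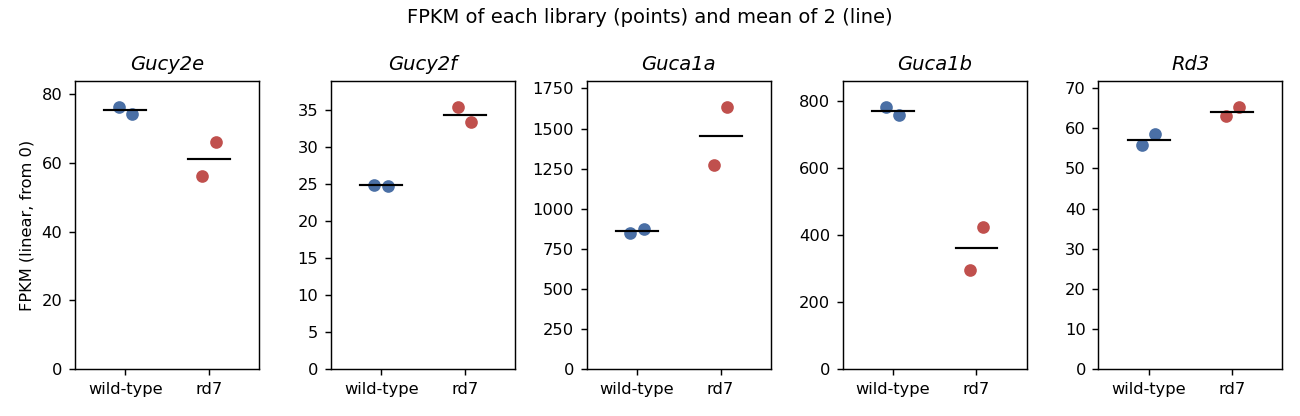
FPKM (vertical axis, linear and starting at 0) of each member in the 2 wild-type (blue) and 2 *rd7* (red) libraries, with a line at the mean of the 2. The values of the genotypes do not overlap for any member, and the *rd7* points of *Guca1a* (1272 and 1633) and *Guca1b* (296 and 424) lie farther apart than the wild-type points.

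Among the cyclases, *Gucy2e* was at 56.1 and 66.0 FPKM in the *rd7* libraries and at 76.2 and 74.3 FPKM in the wild-type libraries. Both *rd7* values lay below both wild-type values, but the *rd7* pools differed from each other by 1.18-fold. The mean was 61.1 ± 6.99 FPKM in *rd7* and 75.3 ± 1.301 FPKM in wild-type (SD, n = 2 each). By limma with Benjamini-Hochberg adjustment, the log2 fold change of *Gucy2e* was -0.31 (SE 0.08, 95% interval -0.51 to -0.10, adjusted p = 0.0283), which is 1.24-fold lower. Relative to the median of all genes, the log2 fold change was -0.45. Without a variance trend the call was lost (adjusted p = 0.0583 by limma). The log2 fold change was -0.29 without wild-type replicate 1 and -0.32 without wild-type replicate 2. A fit without 1 library takes the spread of the gene from the other genotype alone, so it cannot test the call. The value was -0.19 without *rd7* replicate 1 and -0.42 without *rd7* replicate 2. It was -0.48 with GC content and length corrected for, where *Gucy2e* was called.

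*Gucy2f* was at 35.4 and 33.4 FPKM in *rd7* and at 24.9 and 24.7 FPKM in wild-type retinas. Both pools of a genotype lay close together, and every *rd7* value was above every wild-type value. The means were 34.4 ± 1.43 and 24.8 ± 0.149 FPKM (SD, n = 2 each), a 1.38-fold rise. The log2 fold change of *Gucy2f* was 0.47 (SE 0.05, 95% interval 0.34 to 0.60, adjusted p = 0.00225, limma), and 0.32 relative to the median of all genes. The exonic GC content of *Gucy2f*, 42.0%, was the lowest of the members, against 52.0% in *Gucy2e* and up to 60.0% in *Rd3*. With GC content and exonic length corrected for, the log2 fold change of *Gucy2f* was 0.10 and it was not called (adjusted p = 0.23 by limma).

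The sum of both cyclases was 91.5 and 99.4 FPKM in *rd7* and 101 and 99.1 FPKM in wild-type libraries. These sums overlapped between the genotypes. After median-ratio scaling they were 86.4 and 94.5 against 107 and 104 and no longer overlapped, with *rd7* lower. *Gucy2f* made up 38.7% and 33.6% of the cyclase FPKM in *rd7* and 24.6% and 24.9% in wild-type retinas (36.1% ± 3.60 and 24.8% ± 0.211; SD, n = 2 each). *Gucy2e* remained the more abundant cyclase transcript in all 4 libraries.

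Among the activators, *Guca1a* was at 1272 and 1633 FPKM in *rd7* and at 845 and 876 FPKM in wild-type retinas. Both *rd7* values were above both wild-type values. The means were 1452 ± 255 and 860 ± 21.3 FPKM (SD, n = 2 each), a 1.68-fold rise. The log2 fold change of *Guca1a* was 0.74 (SE 0.12, 95% interval 0.45 to 1.04, adjusted p = 0.00533, limma), and 0.60 relative to the median of all genes. Without wild-type replicate 1 the log2 fold change was 0.72, in a fit that cannot test the call. With 99.8% of the tested genes at or below its wild-type mean and 99.9% at or below its *rd7* mean, *Guca1a* was among the most abundant transcripts of the retina in both genotypes.

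*Guca1b* was at 296 and 424 FPKM in *rd7* and at 780 and 758 FPKM in wild-type retinas. Neither *rd7* pool reached the level of a wild-type pool. The mean was 360 ± 90.5 FPKM in *rd7* and 769 ± 15.4 FPKM in wild-type (SD, n = 2 each), so *Guca1b* was 2.17-fold lower. The log2 fold change was -1.12 (SE 0.16, 95% interval -1.51 to -0.72, adjusted p = 0.00398, limma), and -1.26 relative to the median of all genes. When any 1 library was left out, the log2 fold change ranged from -1.38 to -0.86. Such a fit takes the spread of the gene from the other genotype alone, so it cannot test the call. Without the filter on low FPKM the call of *Guca1b* was lost (adjusted p = 0.0943 by limma), as were those of *Gucy2e*, *Guca1a* and *Rd3*.

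The sum of both activators was 1568 and 2057 FPKM in *rd7* and 1626 and 1634 FPKM in wild-type retinas, and these ranges overlapped. *Guca1b* made up 18.9% and 20.6% of this sum in *rd7* libraries and 48.0% and 46.4% in wild-type libraries (19.8% ± 1.22 and 47.2% ± 1.12; SD, n = 2 each). Within a library, *Guca1a* was 4.29 and 3.85 times as high as *Guca1b* in *rd7* and 1.08 and 1.15 times as high in wild-type retinas. Thus the makeup of the activator transcripts differed between the genotypes while their summed FPKM did not separate. The plot of shares shows both pairs.

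**Figure D2:**
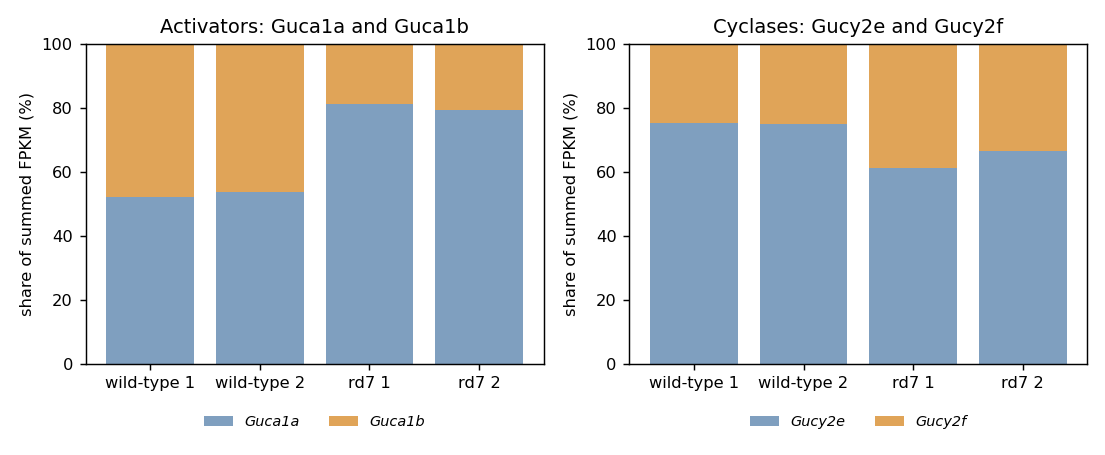
Share of the summed FPKM (vertical axis, percent) taken by each gene in each library, with *Guca1a* and *Guca1b* on the left and *Gucy2e* and *Gucy2f* on the right. *Guca1b* takes 48.0% and 46.4% of the activator sum in the wild-type libraries and 18.9% and 20.6% in the *rd7* libraries, while *Gucy2f* takes 24.6% and 24.9% of the cyclase sum in wild-type and 38.7% and 33.6% in *rd7*.

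A ratio of FPKM values of 1 library is independent of how that library is scaled. The log2 ratio of *Guca1b* to *Guca1a* was -2.10 and -1.94 in *rd7* and -0.12 and -0.21 in wild-type libraries, a difference of -1.86. The log2 ratio of *Gucy2f* to *Gucy2e* was -0.66 and -0.98 in *rd7* and -1.61 and -1.59 in wild-type libraries, a difference of 0.77. Neither ratio overlapped between the genotypes. With 2 libraries against 2 the two-sided exact permutation test cannot give a p under 0.333, and it gave p = 0.333 for both ratios. With a GC and length correction, which was applied to the ratios after the fold changes had been seen, the differences were -2.05 and 0.58.

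Activators exceeded cyclases in every library, by 17.1 and 20.7 times in *rd7* and by 16.1 and 16.5 times in wild-type retinas. On the log2 scale this ratio was higher by 0.21 in *rd7*, and the values did not overlap (two-sided exact permutation test, p = 0.333, the smallest it can give). The difference was 0.073 without *rd7* replicate 2 and 0.35 without *rd7* replicate 1, so its size rests on which *rd7* pool is used.

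*Rd3* was at 63.0 and 65.3 FPKM in *rd7* and at 55.8 and 58.6 FPKM in wild-type retinas. The genotypes did not overlap, but the gap between them was small. The means were 64.2 ± 1.58 and 57.2 ± 2.04 FPKM (SD, n = 2 each), a 1.12-fold difference. The log2 fold change of *Rd3* was 0.17 (SE 0.05, 95% interval 0.04 to 0.29, adjusted p = 0.0438, limma), and only 0.02 relative to the median of all genes. With median-ratio scaling (log2 fold change 0.011, adjusted p = 0.871, limma) and with quantile normalization (0.010, adjusted p = 0.888, limma) *Rd3* was not called. The call was also lost with a replicate block (adjusted p = 0.0501, limma). The log2 fold change was 0.13 without wild-type replicate 1 and 0.20 without wild-type replicate 2, in fits that cannot test the call. With GC content and length corrected for, the value was 0.26. *Rd3* stood at 0.689 and 0.657 FPKM per FPKM of cyclase in *rd7* and at 0.552 and 0.592 in wild-type libraries. On the log2 scale this ratio was higher by 0.23 in *rd7*, without overlap (two-sided exact permutation test, p = 0.333, the smallest it can give).

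In wild-type retinas the FPKM levels descended from *Guca1a* over *Guca1b*, *Gucy2e* and *Rd3* to *Gucy2f*, and no neighbours in this order overlapped. In *rd7* retinas the order of the means put *Rd3* above *Gucy2e*, and the values of this pair overlapped. *Guca1a* and *Guca1b*, the closest pair at the top in wild-type, were far apart in *rd7*.

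The *rd7* pools differed more for the activators than for most genes. *Guca1b* was 1.43-fold higher in *rd7* replicate 2 than in *rd7* replicate 1, and 96.8% of the genes tested differed less between these pools. *Guca1a* was 1.28-fold higher in replicate 2, with 93.0% of genes differing less, and *Gucy2e* 1.18-fold higher, with 83.8%. All 3 were higher in the same pool, although *Guca1a* rose and the other two fell in *rd7*. *Gucy2f* and *Rd3* differed between the *rd7* pools less than the median gene. Between the wild-type pools no member was beyond the 58.4 percentile of all genes. Of the 6 tested rod markers, 4 were higher and 2 lower in *rd7* replicate 2 than in replicate 1. *Gnat1*, the rod transducin gene, was at 2710.2 and 3333 FPKM in replicates 1 and 2, and *Nrl*, the rod transcription factor gene, was at 884 and 785 FPKM.

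For each member, the 3 genes with the closest pattern were taken by the root mean square difference of centred log2 values over the 4 libraries. For *Guca1b* they were *Kcnj14*, a potassium channel gene, with a difference of 0.03, *Chst3* with 0.05 and *Hist2h3c1* with 0.06. *Kcnj14* was at 68.9 and 96.4 FPKM in *rd7* and at 184 and 183 FPKM in wild-type. Its likeness to *Guca1b* over these libraries is the measure by which it was chosen. For *Guca1a* they were *Kcna2*, *Ahr* and *Slc17a8*, for *Gucy2e* they were *Gdpd5*, *Diap3* and *Igsf8*, for *Gucy2f* they were *Reep1*, *Rnd3* and *Fubp3*, and for *Rd3* they were *Tjp1*, *2900064A13Rik* and *Noc3l*. The distance was larger for *Guca1b* than for *Rd3*, whose nearest gene differed by 0.0021. Over 4 libraries such likeness is common, and between 119 genes for *Gucy2e* and 1103 genes for *Gucy2f* correlated with a member at r above 0.99. Ranked by this correlation, the leading 3 genes shared 0 names with those above for every member.

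The genes that act with the cyclases were counted in lists, each set beside the all-gene median of 0.15. The counts stand beside 37.6% of all genes called higher and 8.80% called lower, and were not tested against these shares. The listed cone genes of PDE6, the channel and the exchanger were all called higher, whereas no tested rod gene of these lists was. Of 3 rod PDE6 genes, 0 rose and 1 fell (median log2 fold change 0.02), namely the inhibitory subunit *Pde6g* (-0.47, adjusted p = 0.00254, limma), while *Pde6a* and *Pde6b*, the catalytic subunits, were at 0.02 and 0.03 and were not called. The cone genes *Pde6c* (3.17) and *Pde6h* (2.19) both rose. Of the 3 genes listed for the rod channel and exchanger, *Cnga1* (-0.56) and *Slc24a1* (-0.83) both fell, and *Cngb1* had no value. Of the genes listed for the cone channel and exchanger, *Cnga3* (0.70), *Cngb3* (1.45) and *Slc24a2* (0.61) all rose. With GC content and length corrected for, *Cnga1* was at -0.90 and *Slc24a2* at 0.25, and both were called. *Guca1b* fell further than any tested gene of the rod PDE6 or rod channel lists.

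**Figure D3:**
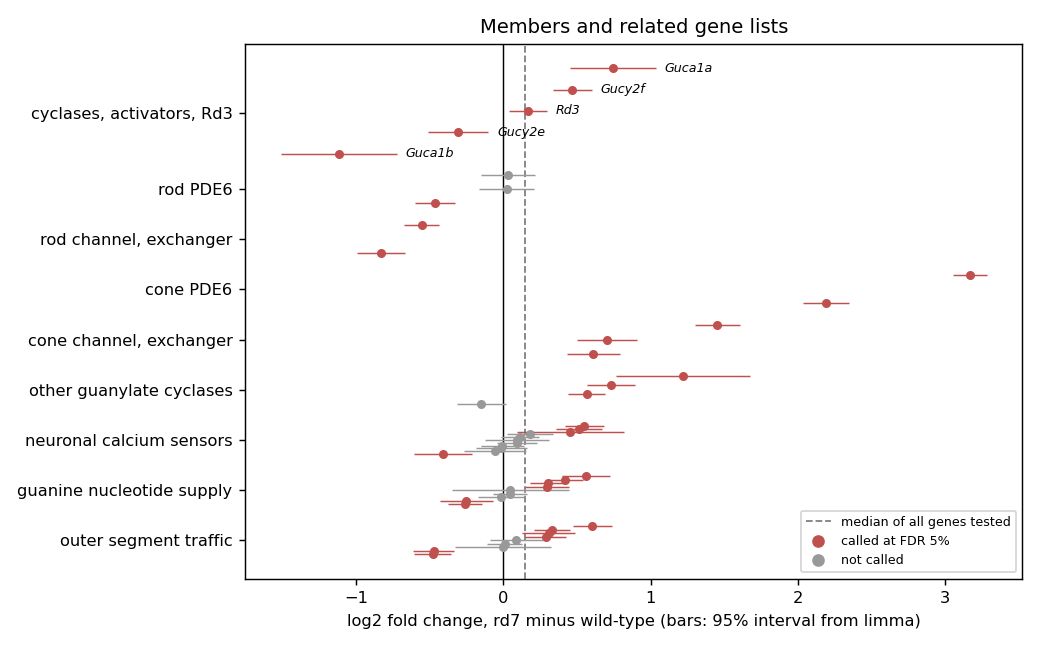
Log2 fold change (horizontal axis, *rd7* minus wild-type) with 95% interval from limma for the members and for tested genes of 8 related lists, red where called at an FDR of 5%, with the median of all genes (0.15) as a dashed line. The members spread from -1.12 (*Guca1b*) to 0.74 (*Guca1a*), while the tested rod channel and exchanger genes lie below 0 and the cone genes above 0.

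Other guanylate cyclases were present at lower levels than *Gucy2e*. Of the 9 listed, 4 were tested, of which 3 rose and 0 fell (median log2 fold change 0.65). The subunits of the nitric oxide-sensitive soluble cyclase, *Gucy1a3* (43.5 and 44.5 FPKM in *rd7*, 29.1 and 30.4 in wild-type) and *Gucy1b3* (41.2 and 42.1 in *rd7*, 23.8 and 26.4 in wild-type), rose by 0.56 and 0.73 on the log2 scale (adjusted p = 0.00125 for both, limma). *Gucy1a3* and *Gucy1b3* thus exceeded *Gucy2f* in FPKM in *rd7* retinas, whereas in wild-type only *Gucy1a3* exceeded it in both libraries. Corrected for GC content and length, *Gucy1a3* and *Gucy1b3* were at 0.26 and 0.42 and were called. *Gucy1a2* also rose (1.22), and the natriuretic peptide receptor *Npr2* was at -0.15 and not called. *Gucy1b2*, *Gucy2c*, *Gucy2d*, *Gucy2g* and *Npr1* had a mean FPKM under 1. Of 8 genes for cyclase ligands and nitric oxide synthases, 3 were tested and 1 rose, *Nos3* (0.42), a call lost with median-ratio scaling and under the GC and length correction.

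The activators belong to the EF-hand family of neuronal calcium sensors. Of 11 other genes of this family, 3 rose and 1 fell (median log2 fold change 0.09). *Rcvrn*, which encodes the photoreceptor protein recoverin, was at 1214 and 1251 FPKM in *rd7* and at 1134 and 1146 in wild-type and was not called (log2 fold change 0.11, adjusted p = 0.125, limma). *Hpcal4* (0.51), *Ncald* (0.55) and *Kcnip2* (0.46) rose and *Hpcal1* (-0.41) fell, and the call of *Kcnip2* was lost with median-ratio scaling and under the GC and length correction. That correction left *Ncald* at 0.27 and *Hpcal4* at 0.33, both called. None of these 11 genes changed by as much as *Guca1a* or *Guca1b* in either direction.

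Of 9 genes that supply guanine nucleotides, 4 rose and 2 fell (median log2 fold change 0.05). *Guk1*, the guanylate kinase that returns GMP to the GTP pool, was at 245 and 254 FPKM in *rd7* and at 184 and 189 in wild-type (log2 fold change 0.42, adjusted p = 0.0023, limma). *Impdh1*, which carries out the rate-limiting step of GMP synthesis in photoreceptors, was at 246 and 254 FPKM in *rd7* and at 299 and 300 in wild-type (-0.26, adjusted p = 0.00748, limma). *Gmps* (0.56), *Hprt* (0.30) and *Nme2* (0.30) also rose and *Nme3* (-0.25) fell, and the calls of *Hprt* and *Nme2* were lost with median-ratio scaling, under which *Guk1* was at 0.27, *Impdh1* at -0.42 and *Nme3* at -0.41. Corrected for GC content and length, *Gmps* (0.15, adjusted p = 0.139), *Hprt* (0.040, adjusted p = 0.638) and *Nme3* (-0.10, adjusted p = 0.356, all by limma) were not called, and *Nme2* had no value.

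Of 9 genes for transport of proteins to the outer segment, the process in which RD3 takes part, 4 rose and 2 fell (median log2 fold change 0.09). *Tulp1* (-0.48) and *Unc119* (-0.47) fell, and *Unc119b* (0.60), *Kif3a* (0.33), *Ift20* (0.31) and *Rpgr* (0.29) rose. The calls of *Ift20* and *Rpgr* were lost with median-ratio scaling, under which *Kif3a* was at 0.17. Corrected for GC content and length, *Kif3a* (0.0082, adjusted p = 0.904), *Ift20* (0.16, adjusted p = 0.165, both by limma) and *Rpgr* were not called, and *Rpgr* was at -0.084. *Aipl1*, the chaperone of PDE6, was at 833 and 842 FPKM in *rd7* and at 829 and 837 in wild-type, and these values overlapped (log2 fold change 0.01). Of 10 other phosphodiesterase and kinase genes of cyclic GMP, 8 were tested and 4 rose, *Prkg1* (1.03), *Pde1a* (0.73), *Pde1c* (0.61) and *Pde1b* (0.26, lost with median-ratio scaling), and 0 fell (median log2 fold change 0.29). Corrected for GC content and length, *Pde1a* (0.38, adjusted p = 0.0546) and *Pde1b* (0.17, adjusted p = 0.075, both by limma) were not called, and *Pde1c* was at 0.24 and was called.

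Markers of several cell types were counted in the same way. On the FPKM as deposited, 37.6% of all genes tested were called higher and 8.80% lower, and the counts were not tested against these shares. Of 6 tested rod markers 0 rose and 5 fell, and their summed FPKM was 10061 and 10917 in *rd7* against 14479 and 14606 in wild-type. *Gnb1*, whose estimate failed in 1 *rd7* library, was left out. Of 10 cone markers 8 rose and 0 fell, and their sum was 4517 and 4809 in *rd7* against 1453 and 1497 in wild-type. *Pde6c*, *Pde6h*, *Cnga3* and *Cngb3* are among the 8 and were already counted in the cone lists above. *Arr3* (0.08) and *Opn1mw* (-0.16) were not called. Of 8 Müller glia markers 4 rose (sum 1973 and 1884 against 1773 and 1835 FPKM), of 6 bipolar markers 4 rose (716 and 574 against 516 and 484), and of 8 amacrine and ganglion cell markers 5 rose (434 and 425 against 366 and 375), and 0 fell in these lists. With median-ratio scaling the higher calls came down to 3 Müller, 3 bipolar and 1 amacrine and ganglion cell markers, and corrected for GC content and length they were also 3, 3 and 1. Under median-ratio scaling 1 Müller and 1 cone marker were called lower. Of the pigment epithelium markers 4 were tested and 3 rose, or 2 after the latter correction (sum of the list 58.1 and 53.7 against 33.3 and 20.6 FPKM). Of the lens markers 3 were tested and 0 called (14.5 and 31.9 against 25.2 and 53.7 FPKM). Of 6 tested blood and microglia loci 1 rose and 2 fell (sum of the list 20.8 and 36.2 against 48.1 and 63.7 FPKM). The part of any of these markers in the member values was not tested.

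**Figure D4:**
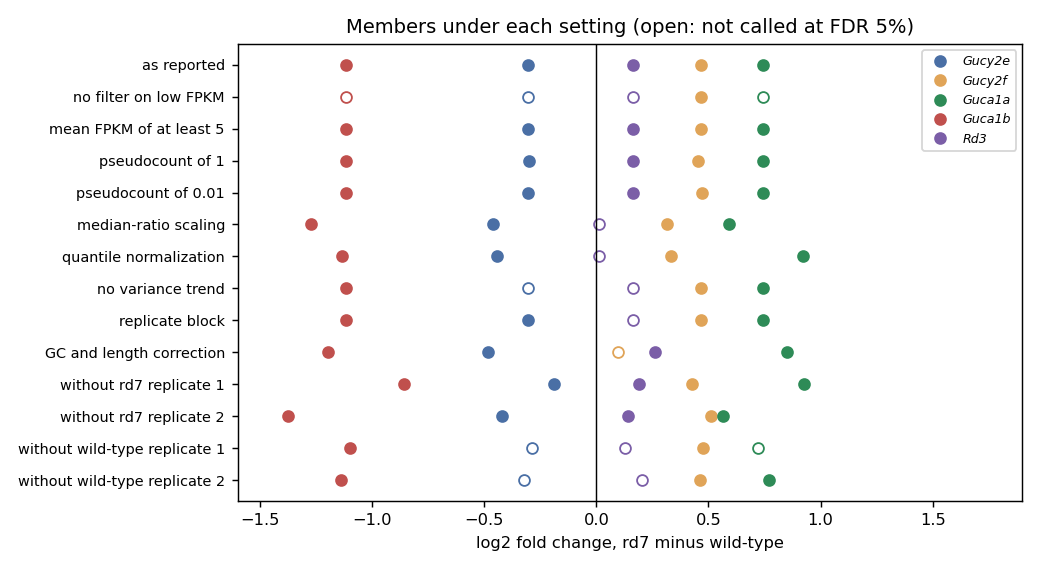
Log2 fold change of each member (horizontal axis, *rd7* minus wild-type) under each way of processing the values (vertical axis), with open circles where the member was not called at an FDR of 5%. *Guca1b* stays between -1.38 and -0.86 and *Guca1a* between 0.56 and 0.92, while *Rd3* comes down to 0.01 with either scaling and *Gucy2f* to 0.10 with the GC and length correction. Fits without 1 library take the spread from the other genotype alone, so open or filled circles there cannot test the call.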

How the data were processed

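Mapping to mm9 by the authors used TopHat 1.4.1, and their Cufflinks 1.3.0 run gave the deposited FPKM of every gene in every library. FPKM are relative to the mapped reads of a library, so a gain of abundant transcripts lowers the values of all others. A deposited table of the Cuffdiff comparison, with pooled FPKM, fold changes and p-values, was not used. An estimate was missing or failed in some library for 262 loci, which were dropped.

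Values were taken as log2(FPKM + 0.1) where the mean over libraries reached 1 FPKM. The 2 *rd7* and 2 wild-type libraries were compared with limma 3.58.1 in R 4.3.3 (two-sided, a trended eBayes prior, no block, and an FDR of 5% after Benjamini-Hochberg adjustment over all genes tested). This step was also run on simulated data. There a far smaller share of genes changed than was called here, and no shift over all genes was added. The simulation therefore does not measure the error rate in these data. The labels separate the pools of a genotype only by number. The p-values rest on the spread between 2 pools per genotype, shrunk by limma towards a variance trend over all genes tested. Exonic length, GC content and strand came from the GENCODE annotation of the same build, and promoters from RefSeq (GRCm38.p6, never joined to mm9 coordinates). Depth was read from 1-transcript genes, with the median of FPKM times exonic kilobases in a window set by eye taken as 1 read. The window of 0.02 to 0.036 was the same for all 4 libraries. The estimate thus follows the window and cannot show how depth differed between libraries. This depth runs below the mapped reads that the authors report for the 4 libraries together. Reads of a member were estimated from the exonic length of all its transcripts. For *Guca1b* this is 2472 bases, against 1668 in the longest transcript, so its estimate may run high. The library protocol in the labels does not mark strand.

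The members and lists were chosen with earlier results of these data known. The genes named are the members, listed genes that were called or belong to a list being described, and the 3 genes nearest to each member. *Gnat1* and *Nrl* were added to the account of the spread between pools after values were seen. Alternatives were other filters, pseudocounts, scalings and an FDR of 1%, no variance trend, a replicate block, a correction for GC content and length by natural splines, leaving out each library, and Pearson correlation as the measure of likeness. Over all genes tested, libraries with the same number did not deviate together (r = -0.03). The sum of the lens markers was higher in replicate 2 than in replicate 1 of both genotypes (14.5 and 31.9 FPKM in *rd7*, 25.2 and 53.7 in wild-type). A further rod marker is not reported here.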

Additional observations from a re-analysis of the deposited data

How the results depend on the processing

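Over 10 alternatives with all 4 libraries, FDR of 1% included, every member kept its direction. The call held in 9 of 10 for *Gucy2f*, *Guca1a* and *Guca1b*, in 7 for *Gucy2e* and in 4 for *Rd3*. Without a filter on low FPKM the calls of *Gucy2e* (-0.31), *Guca1a* (0.74), *Guca1b* (-1.12) and *Rd3* (0.17) were lost, leaving 1 member higher and 0 lower. Over all genes 2249 were then higher and 455 lower, out of more genes than the 12655 tested with the filter. Without a variance trend *Gucy2e* (-0.31, adjusted p = 0.0583 by limma) and *Rd3* (0.17, adjusted p = 0.0883 by limma) were lost, leaving 1 member lower. At an FDR of 1% the same pair was lost, leaving 1 member lower, with 2582 genes higher and 446 lower. *Rd3* was lost with median-ratio scaling (0.011) and quantile normalization (0.010), under which 2492 and 2350 genes were higher and 2479 and 2404 lower. Corrected for GC content and exonic length, *Gucy2f* was lost (0.10), *Rpgr* (-0.084) and *Prkca* (-0.045) changed sign, and the ratio differences became -2.05 and 0.58. With this correction 1515 genes were higher and 1838 lower, among the 96.2% of tested genes that had both values. The cause of these changes was not tested.

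Leaving out each library in turn gave log2 fold changes from -0.42 to -0.19 for *Gucy2e*, 0.56 to 0.92 for *Guca1a* and 0.13 to 0.20 for *Rd3*. The members called ranged from 1 to 3 higher and from 1 to 2 lower, and all genes from 1293 to 5484 higher and from 224 to 1601 lower, with the lowest counts without wild-type replicate 1. Without wild-type replicate 2 the counts were 2124 higher and 338 lower. A lone library was assumed to vary like the other genotype.

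With a replicate block, *Rd3* was the 1 member whose call was lost (0.17, adjusted p = 0.0501 by limma), and of 59 listed genes called, 58 kept their call. Of these 59, 29 lost it without the filter on low FPKM. The labels give the libraries only a number in common, so the block does not stand for a known design. Over all genes tested their deviations did not correlate (r = -0.03). A component shared by few genes, such as the lens markers, was not tested. A pseudocount of 1 or 0.01 and a mean FPKM of at least 5 changed no member's call. Values of 2 pools per genotype limit all of these results. The estimate of at least 2633 reads per member value follows the window used for depth.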
